A study of Homo sapiens with 6 samples.

Results

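The genes described here are 10 aldehyde dehydrogenases (ALDH2, ALDH1B1, ALDH3A1, ALDH3A2, ALDH4A1, ALDH5A1, ALDH6A1, ALDH7A1, ALDH9A1 and ALDH18A1), taken by symbol from the 60604 genes of the deposited count tables. They were picked because most of the family was lower with indomethacin, so the change of each member is given below as a description and without a test. The cells were AGS, an established line from a human adenocarcinoma of the stomach, and total RNA depleted of ribosomal RNA was sequenced. The groups were 3 control libraries (0 mM indomethacin, with no time given) and 3 libraries of cells kept for 24 h with indomethacin at 0.5 mM, an inhibitor of the cyclooxygenases that is taken as a pain and inflammation drug. No label ties the samples of a group to separate cultures, so the spread between them may be technical.

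Aldehyde dehydrogenases oxidise aldehydes to carboxylic acids with NAD or NADP as the electron acceptor. Some clear aldehydes that come from ethanol, membrane lipids or lipid peroxidation, and others carry out a fixed step of amino acid, GABA or carnitine metabolism. Many are imported into the mitochondrial matrix, while others work in the cytosol or on the membrane of the endoplasmic reticulum (ER). In the stomach the family is known mainly for the clearance of acetaldehyde formed from ethanol.

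All 10 members had enough counts to be tested, with 186 to 12710 counts summed over the 3 libraries of a group, out of totals of 17535435 to 23221077 counts per library. Each of the 5 epithelial markers (EPCAM, KRT8, KRT18, KRT19 and CLDN4) was detected, with a summed level of 3230 to 3724 CPM (counts scaled to the TMM-corrected library size) in control and 2887 to 3197 CPM in indomethacin libraries. EPCAM (-0.68 on the log2 scale, edgeR adjusted p = 4.6e-05) and KRT8 (-0.55, 0.0012) were lower and CLDN4 was higher (1.70, 1.5e-07). KRT18 (edgeR adjusted p = 0.086) and KRT19 (0.43) did not pass. The 4 leukocyte markers summed to 0.256 to 0.441 CPM in control and 0.238 to 0.421 CPM in indomethacin libraries, and the 3 endothelial markers to 0.375 to 0.490 and 0.240 to 0.523 CPM. The 4 fibroblast markers summed to 6.47 to 8.57 CPM in control and 9.43 to 11.2 CPM in indomethacin libraries, with COL1A1 higher (1.02 on the log2 scale, edgeR adjusted p = 5.1e-04) and PDGFRB lower (-4.52, 1.7e-06). The 3 hepatocyte markers summed to 2.96 to 4.07 and 0.781 to 0.895 CPM, with APOA1 lower (-2.27, edgeR adjusted p = 1.6e-05). The part of these markers in the members' values was not tested.

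Of the members 9 were lower and ALDH3A2 was higher in the indomethacin libraries. In these 9 lower members and 1 higher member the 2 groups of libraries did not overlap. Of 17200 genes tested, 61.6% had an edgeR adjusted p (Benjamini-Hochberg) under 0.05 (31.0% as lower and 30.6% as higher), and 67.0% had groups that did not overlap (33.3% lower and 33.7% higher). Since this contrast chose the members, nothing is read from their count. The median log2 fold change of the 10 was -1.28, against 0.04 over all genes tested. In bulk RNA a lower level in every cell cannot be told apart from fewer cells that express the gene.

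**Figure D1:**
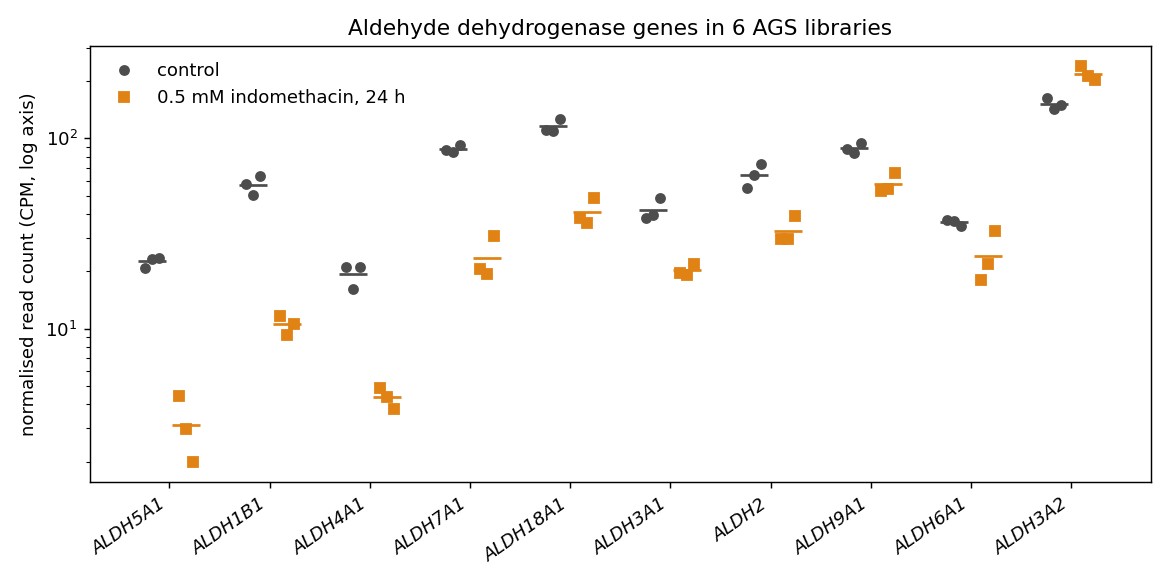
Normalised read counts (CPM, log axis) of the 10 aldehyde dehydrogenase genes in the 3 control (circles) and 3 indomethacin (squares) libraries, with horizontal lines at the group means, ordered by log2 fold change. ALDH5A1 at the left fell from 22.5 to 3.13 CPM and ALDH3A2 at the right rose from 152 to 219 CPM.

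The mitochondrial enzymes that handle acetaldehyde were first considered. Positions are on build hg38. ALDH2 (ENSG00000111275, chromosome 12, 111766887 to 111817532, plus strand) encodes the main acetaldehyde-oxidising enzyme of the matrix. Its levels were 54.6, 63.9 and 73.2 CPM in the control and 29.5, 29.7 and 39.2 CPM in the indomethacin libraries. Control replicate 1 was the lowest of the controls and indomethacin replicate 3 the highest of the treated libraries, without overlap between the groups. The log2 fold change was -0.96 (SE 0.14), or 1.95-fold lower.

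ALDH1B1 (ENSG00000137124, chromosome 9, 38392702 to 38398661, plus strand), a close relative of ALDH2 in the matrix, fell further. Its levels were 57.6, 50.5 and 63.5 CPM in control and 11.7, 9.30 and 10.6 CPM in indomethacin libraries, a log2 fold change of -2.44 (SE 0.13). The 3 indomethacin libraries were close together and far below every control.

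ALDH18A1 and ALDH4A1 act in opposite directions in proline metabolism. ALDH18A1 (ENSG00000059573, chromosome 10, 95605941 to 95656711, minus strand) encodes the enzyme that makes pyrroline-5-carboxylate from glutamate on the way to proline. It was read at 111, 110 and 127 CPM in control and 38.1, 36.1 and 48.5 CPM in indomethacin libraries (log2 fold change -1.50, SE 0.13). ALDH4A1 (ENSG00000159423, chromosome 1, 18871430 to 18902724, minus strand) encodes the enzyme that turns the same intermediate back into glutamate. It was read at 21.1, 16.1 and 21.2 CPM and at 4.90, 4.38 and 3.79 CPM (-2.15, SE 0.17). Thus the gene of the synthetic enzyme fell 2.84-fold and that of the degrading enzyme 4.45-fold.

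ALDH5A1 (ENSG00000112294, chromosome 6, 24494867 to 24537207, plus strand) encodes succinic semialdehyde dehydrogenase, the last step of the GABA shunt, and had the largest fall of the 10. Control libraries had 20.9, 23.2 and 23.6 CPM. The indomethacin libraries, at 4.42, 2.98 and 1.98 CPM, differed from each other by more than the controls did. The log2 fold change was -2.83 (SE 0.21), a 7.10-fold fall that placed it at percentile 2.4 of all genes tested.

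ALDH6A1 (ENSG00000119711, chromosome 14, 74056847 to 74084492, minus strand) encodes methylmalonate semialdehyde dehydrogenase, which works in valine and thymine breakdown. It was read at 37.4, 37.0 and 34.7 CPM in control and 18.1, 22.0 and 32.6 CPM in indomethacin libraries. Indomethacin replicate 3 came close to the controls, and the log2 fold change of -0.59 (SE 0.17) was the smallest of the mitochondrial members. Its exons share 670 of 6682 bases with BBOF1 on the other strand, which was read at 1.32 ± 0.271 CPM in control and 1.62 ± 0.642 CPM in indomethacin libraries (mean ± SD, n = 3).

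ALDH7A1 (ENSG00000164904, chromosome 5, 126531200 to 126595362, minus strand), or antiquitin, oxidises the semialdehyde formed from lysine and also betaine aldehyde, and is found both in mitochondria and in the cytosol. It was read at 86.5, 85.1 and 92.8 CPM in control and 20.7, 19.4 and 30.8 CPM in indomethacin libraries (log2 fold change -1.90, SE 0.15). Its processed pseudogene ALDH7A1P1 had 0 to 9 counts in a library and the other 3 pseudogenes 0 or 1, against 390 to 1994 for ALDH7A1.

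The 3 members outside mitochondria moved in both directions. ALDH9A1 (ENSG00000143149, chromosome 1, 165662216 to 165698863, minus strand) encodes the cytosolic trimethylaminobutyraldehyde dehydrogenase of carnitine synthesis. Its levels were 87.7, 83.6 and 95.0 CPM in control and 52.9, 54.5 and 66.1 CPM in indomethacin libraries (log2 fold change -0.62, SE 0.11). ALDH3A1 (ENSG00000108602, chromosome 17, 19737984 to 19748943, minus strand), a largely cytosolic enzyme for aromatic and medium-chain aldehydes, was read at 38.2, 39.5 and 48.4 CPM and at 19.7, 19.1 and 21.9 CPM (-1.06, SE 0.13). These 2 cytosolic members therefore fell 1.54-fold and 2.08-fold.

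ALDH3A2 (ENSG00000072210, chromosome 17, 19648136 to 19685760, plus strand) encodes fatty aldehyde dehydrogenase, a membrane protein of the ER and peroxisomes whose loss causes Sjögren-Larsson syndrome. Levels were 163, 143 and 149 CPM in control and 241, 212 and 203 CPM in indomethacin libraries. All 3 treated libraries lay above every control, with a log2 fold change of 0.53 (SE 0.11). ALDH3A2 and ALDH3A1 are neighbours of the same subfamily, with 52223 bases between them, and moved in opposite directions. Per length and scaled to a common sum per library (TPM), the ALDH3A2 groups overlapped, at 13.2 to 15.6 TPM in control and 14.3 to 21.8 TPM in indomethacin libraries. That sum covers all genes, with mitochondrially encoded genes and small structured RNAs among them.

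Mitochondrial members were set beside the others. The 6 mitochondrial members (ALDH2, ALDH1B1, ALDH4A1, ALDH5A1, ALDH6A1 and ALDH18A1) had a median log2 fold change of -1.83, between -2.83 and -0.59. The 3 members outside mitochondria had a median of -0.62, between -1.06 and 0.53, and ALDH7A1 with its double location stood at -1.90. The 2 sets overlapped, since ALDH2 and ALDH6A1 fell less than ALDH3A1. The difference between the sets was not tested, because the members were chosen on this contrast.

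**Figure D2:**
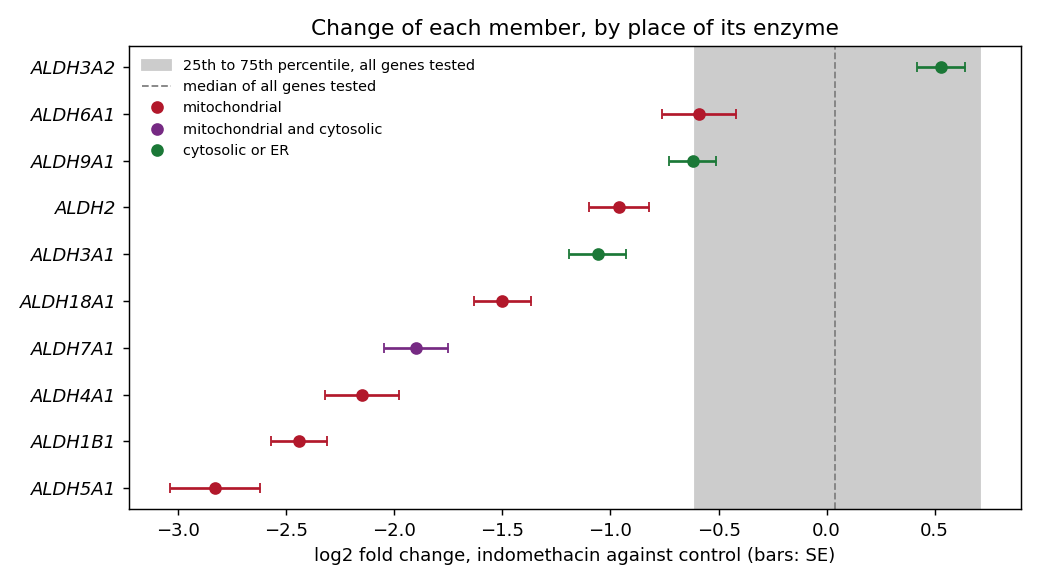
Log2 fold change (indomethacin against control, bars SE) of each member, coloured by where its enzyme is found, over the span from the 25th to the 75th percentile (-0.61 to 0.71, grey) and the median (0.04, dashed) of all genes tested. ALDH5A1, ALDH1B1, ALDH4A1, ALDH7A1 and ALDH18A1 lie furthest to the left and ALDH3A2 alone lies to the right of the median.

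To compare levels between genes, counts were divided by the length of each gene's merged exons and scaled to the same sum in every library, which gives TPM. Among the 10 members ALDH18A1 had the highest such level in control libraries (44.0 ± 1.56 TPM, mean ± SD, n = 3). ALDH9A1 (38.3 ± 1.07) and ALDH1B1 (26.2 ± 2.08) followed. ALDH3A1 (15.4 ± 1.35) and ALDH3A2 (14.2 ± 1.26) came next, with ranges that overlapped. ALDH2 (9.37 ± 1.04), ALDH6A1 (7.80 ± 0.640), ALDH4A1 (7.65 ± 1.04) and ALDH7A1 (7.03 ± 0.0489) followed closely on each other, and ALDH5A1 was the lowest (4.26 ± 0.232). Among ALDH6A1, ALDH4A1 and ALDH7A1 neighbours in the order overlapped. On this scale the genes of proline synthesis and carnitine synthesis led the members in control libraries, and ALDH1B1 was above ALDH2 in all 3. The latter order rests on the lengths, 3117 bases for ALDH1B1 and 9723 for ALDH2. Without length, control libraries held 57.2 ± 6.47 CPM of ALDH1B1 and 63.9 ± 9.32 CPM of ALDH2.

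The order was different in indomethacin libraries. ALDH9A1 (21.7 ± 0.523 TPM) and ALDH3A2 (18.0 ± 3.75) led with overlapping ranges, ahead of ALDH18A1 (13.5 ± 0.967) and ALDH3A1 (6.50 ± 0.498). ALDH6A1, ALDH1B1 and ALDH2 could not be ordered, at 4.43 ± 0.769, 4.25 ± 0.861 and 4.17 ± 0.220 TPM. ALDH7A1 and ALDH4A1 were near 1.62 and 1.52 TPM, and ALDH5A1 was at 0.535 ± 0.266.

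Merged exons can be far longer than the transcript a cell makes, and the ratio between the lengths was uneven over the members. For ALDH3A2 it was 15331 merged bases against 3928 bases of the principal transcript in GENCODE, for ALDH7A1 17914 against 4964, and for ALDH5A1 7563 against 2266. With the length of the principal transcript, ALDH3A2 became the first of the members in both groups. It stood at 55.3 ± 4.90 TPM in control and 70.2 ± 14.7 in indomethacin libraries. ALDH7A1 then stood at 25.4 ± 0.177 and 5.85 ± 0.839 TPM, beside ALDH1B1 in control (26.6 ± 2.11). ALDH3A1, with 3878 merged bases against 1925, then stood above ALDH1B1 in control libraries (31.1 ± 2.73 TPM), where by merged exons it stood below. The order of the members, with the places of ALDH3A2, ALDH7A1, ALDH5A1 and ALDH3A1 in it, thus depended on the length used. The fold change of a single gene did not.

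Summed per length, the mitochondrial members held 99.3 ± 3.69 TPM in control and 28.4 ± 1.81 in indomethacin libraries, a log2 ratio of -1.81. The sum of the members outside mitochondria went from 67.9 ± 1.90 to 46.2 ± 4.60 TPM (-0.56), and for ALDH9A1 and ALDH3A1 alone from 53.8 ± 2.06 to 28.2 ± 0.969 (-0.93). The groups did not overlap in any of these sums. As a share of the summed level of the 10 members, the mitochondrial ones took 57.0% ± 0.411 in control and 37.3% ± 1.90 in indomethacin libraries. ALDH3A2 alone took 8.14% ± 0.769 and 23.5% ± 3.39. Other ALDH genes are not in that sum, among them ALDH16A1 at 15.7 ± 0.905 TPM in control and 10.4 ± 2.53 in indomethacin libraries. With principal transcripts the mitochondrial share was 42.5% ± 0.730 and 22.0% ± 1.88, the mean share of ALDH3A2 was 20.0% and 47.1%, and the log2 ratio of the members outside mitochondria was -0.29 in place of -0.56. That ratio was also nearer to 0 with a total of nuclear-encoded genes (-0.28) and with TMM-scaled CPM per kilobase (-0.36). With the nuclear-encoded total, which leaves out small structured RNAs too, the mitochondrial members stood at 362 ± 19.8 in control and 126 ± 11.4 in indomethacin libraries. Their log2 ratio was then -1.53 in place of -1.81.

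**Figure D3:**
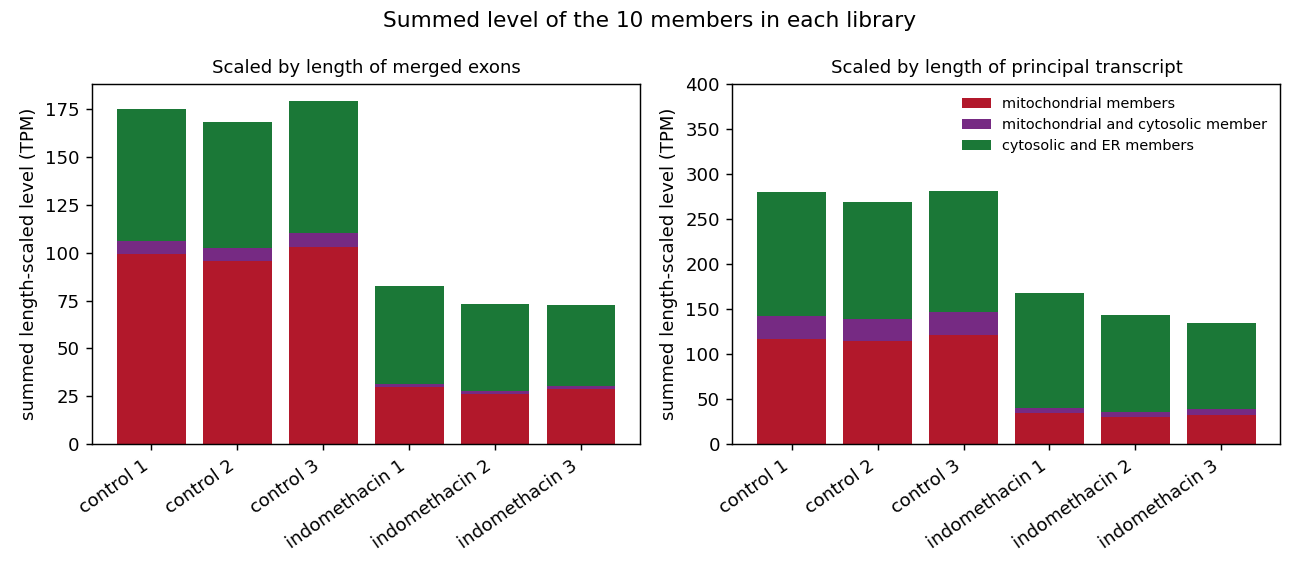
Summed length-scaled level (TPM) of the mitochondrial members, of ALDH7A1 and of the cytosolic and ER members in each library, scaled by merged exons (left) or by principal transcripts (right, on its own axis). The mitochondrial part falls from 99.3 to 28.4 TPM on the left and from 117 to 32.4 on the right.

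Promoters were read from RefSeq (GRCh38.p14), which held windows of 250 bases before to 50 bases after the start for 8 members. ALDH2 and ALDH3A1 had no entry. The 4 windows below are those of the 2 members with the largest falls (ALDH5A1 and ALDH1B1), of the mitochondrial member with the smallest fall (ALDH6A1) and of the member that rose (ALDH3A2). They lie at chr6:24494719-24495018 (plus strand), chr9:38392452-38392751 (plus), chr14:74084404-74084703 (minus) and chr17:19648501-19648800 (plus, the second of 2 starts). Capitals mark matches to the motifs named after them.
ALDH5A1: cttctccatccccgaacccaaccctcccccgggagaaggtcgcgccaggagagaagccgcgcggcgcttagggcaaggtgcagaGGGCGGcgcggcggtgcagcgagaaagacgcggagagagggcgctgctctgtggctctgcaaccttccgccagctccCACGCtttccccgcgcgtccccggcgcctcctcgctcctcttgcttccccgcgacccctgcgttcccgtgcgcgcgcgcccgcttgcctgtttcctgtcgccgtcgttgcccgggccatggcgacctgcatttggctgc
ALDH1B1: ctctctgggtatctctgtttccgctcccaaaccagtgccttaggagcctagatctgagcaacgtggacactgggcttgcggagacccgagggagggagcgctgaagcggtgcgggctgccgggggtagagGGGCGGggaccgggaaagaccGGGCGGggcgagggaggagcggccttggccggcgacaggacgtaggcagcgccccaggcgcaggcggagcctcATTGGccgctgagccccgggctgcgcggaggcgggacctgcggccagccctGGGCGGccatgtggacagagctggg
ALDH6A1: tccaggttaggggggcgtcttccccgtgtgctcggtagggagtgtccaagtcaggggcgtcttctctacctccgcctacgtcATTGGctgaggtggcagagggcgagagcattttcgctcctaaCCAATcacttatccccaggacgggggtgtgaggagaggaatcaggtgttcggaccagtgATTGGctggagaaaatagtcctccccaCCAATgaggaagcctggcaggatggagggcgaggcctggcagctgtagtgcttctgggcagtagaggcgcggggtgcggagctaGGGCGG
ALDH3A2: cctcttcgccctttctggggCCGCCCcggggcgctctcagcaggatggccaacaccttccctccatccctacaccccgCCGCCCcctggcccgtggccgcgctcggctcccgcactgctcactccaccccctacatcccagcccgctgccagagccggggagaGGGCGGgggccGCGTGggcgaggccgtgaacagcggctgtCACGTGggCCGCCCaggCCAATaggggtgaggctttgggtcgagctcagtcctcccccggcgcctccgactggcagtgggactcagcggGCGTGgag

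The 9 motifs were searched on both strands, and no match overlapped another. The GC box (GGGCGG) was found for 7 of the 8 members, against 45% of 35116 promoters of the same length, and the CCAAT box (CCAAT) for 4 of 8, against 34.6%. ALDH3A2 and ALDH4A1 have 2 windows each, and by window, as the shares of all promoters are counted, these were 7 of 10 and 4 of 10. The window of ALDH6A1 held 4 CCAAT matches. The printed window of ALDH3A2 held 4 GC boxes, while the window of its other start (chr17:19647886-19648185) held 0 matches to any of the 9 motifs. The core of the xenobiotic response element (GCGTG) was found for 2 members, ALDH3A2 and ALDH5A1 (36.5% of all promoters), and the E box (CACGTG) for ALDH3A2 and ALDH18A1 (7.26%). None of the 8 held a TATA box (TATAAA, 11.5%), an antioxidant response element (TGACNNNGC, 13.3%), a CEBP-ATF response element (TGATGNAA, 3.62%), the palindromic NRF1 element (5.78%) or an estrogen-related receptor element (TNAAGGTCA, 0.951%) in these letters. The median GC content of the member windows was 65.5%, against 58.7% over all promoters. These matches are descriptions of the letters in the window.

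The starts of ALDH5A1 and ALDH6A1 face the start of another protein-coding gene. ALDH9A1 has a processed pseudogene that starts 113 bases away on the other strand. It shares 96 exonic bases with ALDH9A1 and had 0 to 2 counts in a library. GPLD1, the gene of a phospholipase that cleaves GPI anchors, starts 338 bases from ALDH5A1 on the other strand and shares 239 exonic bases with it. GPLD1 fell from 5.02 ± 0.351 to 1.32 ± 0.386 CPM (-1.90 on the log2 scale with an SE of 0.26, edgeR adjusted p = 2.5e-05, n = 3), beside the fall of ALDH5A1. LIN52, a subunit of the cell cycle regulator DREAM, starts 304 bases from ALDH6A1 and was read at 8.86 ± 0.533 and 7.70 ± 1.25 CPM (-0.21, edgeR adjusted p = 0.30). Whether reads were assigned by strand is not given in the sources used here, so reads of the shared GPLD1 bases cannot be assigned.

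The other 9 ALDH genes were at low levels, apart from ALDH16A1 and ALDH3B1. ALDH16A1, whose protein lacks the usual catalytic cysteine, was read at 47.5, 47.7 and 56.6 CPM in control and 30.0, 47.6 and 37.4 CPM in indomethacin libraries, which overlapped. It passed as lower (-0.40 on the log2 scale with an SE of 0.15, edgeR adjusted p = 0.032), but not without indomethacin replicate 1 (adjusted p = 0.10), indomethacin replicate 3 (0.054) or control replicate 3 (0.11), nor with upper-quartile factors (0.11) or a filter of 1 CPM (0.053). Its exons share 152 of 4589 bases with PIH1D1 on the other strand (-0.39). ALDH3B1, an enzyme for lipid-derived aldehydes, stood at 5.85 ± 0.869 and 5.12 ± 1.05 CPM and did not pass (edgeR adjusted p = 0.43).

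ALDH8A1, of the kynurenine pathway, rose from 0.718 ± 0.224 to 2.08 ± 0.253 CPM (1.52 on the log2 scale with an SE of 0.34, edgeR adjusted p = 0.0014, n = 3). ALDH1A1, a retinaldehyde dehydrogenase and a widely used stem cell marker, was read at only 25, 15 and 14 counts in control and 2, 1 and 9 counts in indomethacin libraries. It passed as lower (-1.95, SE 0.64; edgeR adjusted p = 0.016), but not without control replicate 1 (0.067), indomethacin replicate 1 (0.063) or indomethacin replicate 2 (0.089). Without indomethacin replicate 3, which held 9 of the 12 treated counts, the log2 fold change of ALDH1A1 was -3.43 (edgeR adjusted p = 0.0010). ALDH1L2, the mitochondrial 10-formyltetrahydrofolate dehydrogenase, did not pass (0.63, SE 0.39; edgeR adjusted p = 0.18).

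ALDH1A2, ALDH1A3, ALDH1L1 and ALDH3B2 had too few counts to be tested. ALDH3B2 had 11 counts over the control and 0 over the indomethacin libraries, at least 3.16-fold lower against a floor of 3 counts over the group. ALDH1L1 had 6 and 1 counts, a ratio of 5.17 (95% counting interval 0.627 to 238). ALDH1A2 had 11 and 5 counts. ALDH1A3 had 27 and 9, and 1715 of its 5335 exonic bases overlap its antisense gene ALDH1A3-AS1. Of the retinaldehyde dehydrogenases ALDH1A1, ALDH1A2 and ALDH1A3, each was therefore under 1 CPM on average in both groups.

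Genes of the neighbouring steps were then counted from lists by pathway. Next to ALDH4A1 and ALDH18A1, 3 of 8 tested genes of proline, ornithine and glutamate metabolism rose and 4 fell (median -0.34). Ornithine aminotransferase OAT fell from 272 ± 19.2 to 86.3 ± 9.98 CPM (-1.66, edgeR adjusted p = 3.7e-08) and glutamine synthetase GLUL from 107 ± 10.3 to 35.2 ± 2.23 CPM (-1.61, 3.6e-08). PYCR1, a reductase of the last step of proline synthesis, rose from 37.7 ± 6.80 to 64.3 ± 11.6 CPM (0.77, edgeR adjusted p = 6.1e-04). PYCR3, another reductase of that step, fell from 9.10 ± 1.07 to 4.44 ± 0.517 CPM (-1.03, edgeR adjusted p = 2.2e-04). PYCR1, which uses the product of ALDH18A1, was thus higher while ALDH18A1 and PYCR3 were lower.

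Next to ALDH5A1, 5 of 6 tested genes of the GABA shunt fell and none rose (median -1.10). GABA transaminase, ABAT, which makes the substrate of ALDH5A1, fell from 20.8 ± 1.01 to 3.69 ± 0.601 CPM (-2.49 on the log2 scale with an SE of 0.16, edgeR adjusted p = 1.6e-08, n = 3). AKR7A2, a reductase of the same semialdehyde, fell from 33.0 ± 2.75 to 9.74 ± 0.323 CPM, and SUCLG1, a subunit of succinyl-CoA ligase, from 54.8 ± 5.45 to 25.4 ± 3.22 CPM.

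Of 22 tested genes of branched-chain amino acid breakdown, next to ALDH6A1, 17 fell and 2 rose (median -0.93). The mitochondrial transaminase BCAT2 fell from 83.8 ± 7.72 to 25.5 ± 1.04 CPM (-1.72, edgeR adjusted p = 1.6e-08) and the hydratase ECHS1 from 146 ± 10.9 to 48.5 ± 3.06 CPM (-1.59, 2.5e-08). The 2 subunits of propionyl-CoA carboxylase, which acts after ALDH6A1, parted. PCCA rose from 26.5 ± 4.17 to 80.7 ± 2.12 CPM (1.60, edgeR adjusted p = 9.6e-08), and PCCB fell from 76.0 ± 6.06 to 19.2 ± 4.25 CPM (-1.99, 6.6e-08). PCCB shares 1661 of its 7498 exonic bases with STAG1 on the other strand. AUH, a hydratase of leucine breakdown that also binds RNA, rose (0.64, edgeR adjusted p = 8.7e-04).

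Of 8 tested genes of lysine and betaine metabolism, next to ALDH7A1, 5 fell and 2 rose (median -0.41). Choline dehydrogenase, CHDH, which makes the betaine aldehyde that ALDH7A1 can oxidise, fell from 30.2 ± 1.12 to 10.4 ± 2.22 CPM (-1.53, edgeR adjusted p = 1.1e-06). CHDH shares 1399 of 7787 exonic bases with CACNA1D on the other strand. The enzymes that use betaine and its product rose from low levels. BHMT had 0 counts in control and 71 in indomethacin libraries, at least 27.5-fold higher, and DMGDH rose from 0.348 ± 0.162 to 5.39 ± 1.23 CPM (3.92, edgeR adjusted p = 4.6e-07). BHMT and DMGDH are neighbours on opposite strands that share 239 exonic bases.

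Next to ALDH9A1, 3 of 4 tested genes of carnitine synthesis and uptake fell (median -0.49). The hydroxymethyltransferase SHMT1 fell from 48.7 ± 2.77 to 8.14 ± 1.45 CPM (-2.58, edgeR adjusted p = 3.3e-09), the carnitine transporter SLC22A5 had a log2 fold change of -0.53 (0.0052) and the first enzyme of the pathway, TMLHE, of -0.44 (0.028). BBOX1, the last enzyme, had 1 and 2 counts over the control and indomethacin libraries. The call of TMLHE was lost with upper-quartile factors (edgeR adjusted p = 0.10) and without control replicate 2 (0.068), indomethacin replicate 2 (0.080) or indomethacin replicate 3 (0.087).

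Around ALDH3A2, 2 of 8 tested genes that make or use long-chain aldehydes rose and 3 fell (median -0.06), of which 1 fell with upper-quartile factors. The sphingosine phosphate lyase SGPL1, a source of long-chain aldehydes, fell from 263 ± 8.67 to 122 ± 17.6 CPM (-1.10, edgeR adjusted p = 2.0e-06). The fatty acid hydroxylases CYP4F3 and CYP4F12, which have close copies, rose at low levels. CYP4F3 had 3 and 167 counts, a ratio of 64.6 (95% counting interval 21.7 to 317), and CYP4F12 9 and 65 counts (2.99, edgeR adjusted p = 1.2e-04).

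Of the genes around ALDH2 and ALDH1B1, 3 of 4 tested fell and none rose (median -0.94). CAT, the catalase of peroxisomes, fell from 116 ± 12.1 to 39.8 ± 4.56 CPM (-1.54, edgeR adjusted p = 1.1e-07). The formaldehyde-clearing dehydrogenase ADH5 fell from 121 ± 13.5 to 60.4 ± 4.10 CPM (-1.01, edgeR adjusted p = 3.5e-06) and the acetyl-CoA synthetase ACSS2 from 78.4 ± 13.9 to 42.9 ± 3.39 CPM (-0.87, 5.9e-05). Of the ethanol-oxidising dehydrogenases ADH1A, ADH1B, ADH1C, ADH4, ADH6 and ADH7, none had enough counts to be tested, with 0 to 15 counts summed over a group.

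In the retinoic acid list, next to the little expressed ALDH1A genes, 3 of 6 tested rose and 2 fell (median 0.37). The retinol dehydrogenase RDH10, which makes retinaldehyde, rose from 8.24 ± 0.615 to 44.9 ± 3.12 CPM (2.45, edgeR adjusted p = 1.9e-09), and DHRS3, which reduces it back, from 15.0 ± 0.604 to 30.2 ± 3.21 CPM (8.5e-06). DHRS9 had 1 and 82 counts (ratio 95.2, 95% counting interval 16.6 to 3810). RDH11 (-0.83, edgeR adjusted p = 1.6e-05) and the binding protein CRABP2 (-0.75, 6.1e-05) fell.

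**Figure D4:**
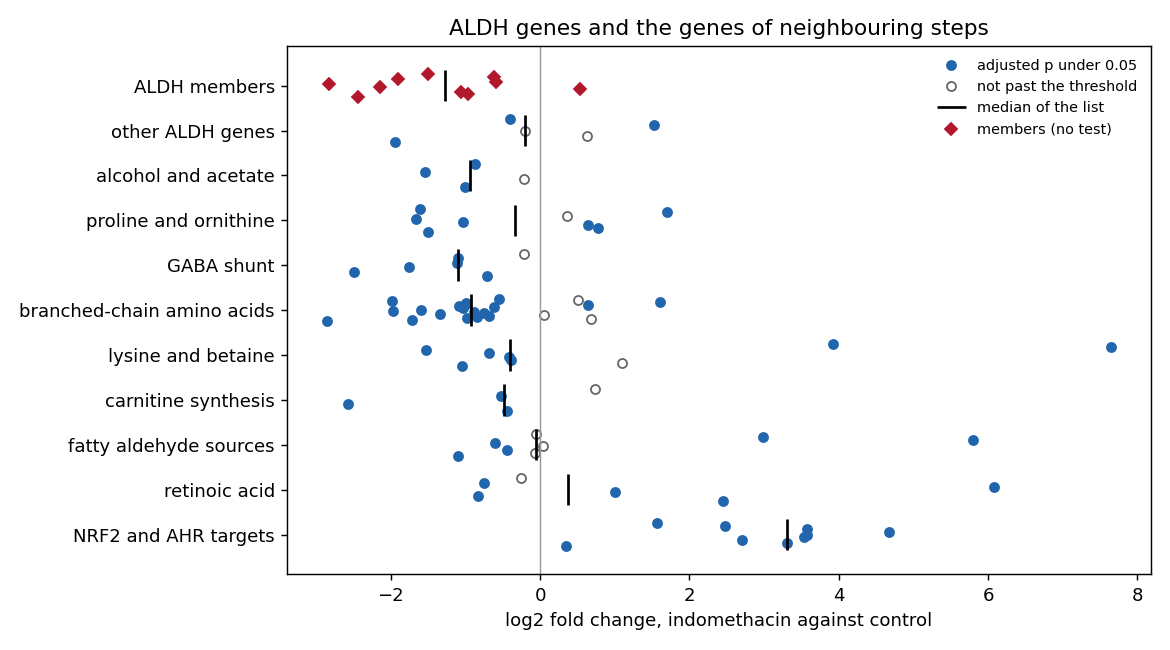
Log2 fold changes (indomethacin against control) of the tested genes of each list, with diamonds for the members, filled circles for other genes with an edgeR adjusted p under 0.05 and a bar at the list median, which runs from -1.28 for the 10 members to 3.30 for the targets of NRF2 and the aryl hydrocarbon receptor. The points of BHMT, DHRS9 and CYP4F3 are fitted values against 0 to 3 control counts.

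ALDH3A1 is known as a target of the aryl hydrocarbon receptor and of NRF2, and was set beside other targets of these factors. All 9 tested targets rose (median 3.30), while ALDH3A1 was lower. The quinone reductase NQO1 rose from 476 ± 30.1 to 606 ± 88.1 CPM (edgeR adjusted p = 0.023), and this call was lost on leaving out any 1 of the control libraries or indomethacin replicate 1, and with no filter (edgeR adjusted p = 0.051 to 0.15). Thioredoxin reductase TXNRD1 rose from 104 ± 3.95 to 1229 ± 246 CPM (3.57, edgeR adjusted p = 4.7e-10), and the subunits of glutamate-cysteine ligase, GCLC and GCLM, rose with log2 fold changes of 3.53 (5.9e-10) and 2.71 (4.7e-09). CYP1A1, the defining target of the aryl hydrocarbon receptor, rose from 5.43 ± 1.96 to 30.2 ± 4.62 CPM (2.47, edgeR adjusted p = 2.3e-07). AHRR and CYP1B1, also listed as targets of this receptor, had too few counts to be tested. Over the control and indomethacin libraries AHRR had 14 and 12 counts, and CYP1B1 had 3 and 5. CYP1A1, AHRR, CYP1B1, PYCR3, LIN52, BBOX1, NQO1, COL1A1, PDGFRB and APOA1 were named after their values were seen. The changes of single epithelial markers were also added after their values were seen. The pathway lists were drawn up with results of these data known, so their counts are a description beside the 31.0% and 30.6% of all genes that passed as lower and higher.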

How the data were processed

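Counts per gene were used as the authors deposited them, each library in a table of its own with the layout of featureCounts, per the file headers. The submitters' processing notes also name cutadapt 1.16, HISAT2 2.1.0 and build hg38. The strand setting, the handling of reads with several places and the annotation release are not given in the sources used here, which bears on overlapping genes and close copies. The record of 1 gene was broken in every file, and 3 of 60607 lines were left out. Genes were matched by Ensembl identifier to symbols, and all 10 members were found once.

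Genes were kept by filterByExpr, scaled by TMM and tested with edgeR 4.0.16 (R 4.3.3) by its quasi-likelihood test with group as the only term, adjusted by Benjamini-Hochberg over all 17200 genes (threshold 0.05). The SE follows from the fold change and the test statistic. The edgeR, limma-voom and DESeq2 tests were checked on simulated counts. Only a small part of the genes was changed there, at a single dispersion. The check therefore does not cover a contrast in which 61.6% of genes passed. No library was taken as a copy of another, since pairs within a group had chi-square values of 6.99 to 21.9 times the degrees of freedom. This does not show that they came from separate cultures. Counting intervals and floors cover counting error only. Named genes were the members, the other ALDH genes, from each list the 3 with the lowest adjusted p, those that moved against their list, and genes overlapping a member. Of these, 2 genes are not reported here. The members and lists were chosen with earlier results of these data known. Alternatives were DESeq2 1.42.0, limma-voom (limma 3.58.1), RLE and upper-quartile factors, library sizes without mitochondrially encoded and small structured RNAs, no filter, a filter of 1 CPM in 3 libraries, a replicate block, each library left out, and, for summed levels, other totals and lengths. The use of principal transcripts (GENCODE 29) was added after the data were seen.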

Additional observations from a re-analysis of the deposited data

How the results depend on the processing

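The 10 members kept their direction in all 140 values under the alternatives (9 lower and 1 higher each time), with ALDH6A1 between -0.87 and -0.44 and ALDH3A2 between 0.42 and 0.64. Upper-quartile factors moved the median log2 fold change of all genes from 0.04 to 0.16 and the number called to 4686 lower and 6124 higher, against 5327 and 5264, and with no filter that median was 0.20. Beside the members, only the listed pathway genes, the other ALDH genes and genes next to an ALDH gene were followed singly. Among their values 26 lost and 15 gained a call in single fits, and none reversed. With upper-quartile factors 1 of the other ALDH genes was lower, 1 carnitine gene was higher and 1 fatty aldehyde gene was lower, and the cause was not tested. With a filter of 1 CPM, which tests fewer genes, these were 0 other ALDH genes lower, 1 carnitine gene higher and 1 fatty aldehyde gene higher. With no filter, which tests more, 5 genes around ALDH2 were lower. Leaving out 1 library gave 0 to 2 other ALDH genes lower and 0 to 1 carnitine genes higher. The summed mitochondrial members had a log2 ratio of -1.53 over nuclear-encoded genes and -1.61 with TMM-scaled CPM per kilobase, ALDH7A1 of -1.85 over nuclear-encoded genes, and the members outside mitochondria of -0.28, -0.36 and, with principal transcripts, -0.29. The replicate block gave 5352 lower and 5249 higher genes and left the direction of all 10 members. Same-numbered libraries had correlations of deviations of 0.02, 0.01 and 0.13, and not every library was closest to its own number, so the numbers were not taken as pairs. ALDH1A2, ALDH1A3, ALDH1L1, ALDH3B2 and the ethanol-oxidising ADH genes had too few counts for a test. The part of sequencing depth in this was not tested.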
